A study of Mus musculus with 12 samples.

Results

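The 43 genes described here are enzymes, transporters and membrane proteins grouped with peroxisomal oxidation (30 genes) and Pex genes of peroxisome biogenesis (13 genes). The 30 also hold genes of ether lipid synthesis (Agps, Gnpat and Far1) and oxidases of substrates other than fatty acids (Hao1 and Pipox). Members were chosen by gene symbol, with no threshold on a measured value. All 43 were present among the 49398 genes of the deposited table, and all 43 passed the filter on low counts that left 13814 genes for testing. Messenger RNA had been sequenced from livers of wild-type C57BL/6J mice, 9 months old, kept for 8 weeks on AIN-93G, a purified chow. The control chow carried no added oil (4 livers), and the other chows carried 1% (4 livers) or 5% (4 livers), by weight, of an oil concentrate of very-long-chain polyunsaturated fatty acids (VLCPUFA). Each diet was given to 2 females and 2 males, and all mice were fasted for 5 hours before the liver was taken. The study speaks of 6 livers per group, and the 12 labelled libraries were analysed here.

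Peroxisomes shorten fatty acids that mitochondria handle poorly: very long, polyunsaturated, branched and dicarboxylic chains. An acyl-CoA oxidase opens each round and gives off hydrogen peroxide, a bifunctional enzyme hydrates and dehydrogenates the chain, and a thiolase cuts off acetyl-CoA, while catalase breaks down the peroxide. Chains with double bonds also need isomerases and a reductase that move or remove those bonds. Pex proteins build the organelle by inserting its membrane proteins, importing its enzymes and dividing it. In rodent liver many of the oxidation genes are known targets of the fatty acid receptor PPARα.

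Livers carry the numbers of the labels, and lists of 4 values give the females of a diet first. On the control diet the order is N979 and N980 (females), then N967 with N968 (males). On 1% oil the females were N983 with N984, followed by the males N971 with N972. On 5% oil it is N987 with N988 for females, then N975 with N976 for males. Levels are in CPM, reads of a gene relative to the scaled depth of its library. Depth ran from 5291385 estimated reads in N979 to 15674130 in N976. Library N979 stood apart, with 74.8% of its reads on protein-coding transcripts against 85.6% to 92.5% in the other 11. The share of reads on transcripts annotated as retained-intron forms was 5.19% in N979, 4.89% in N983, 5.12% in N984 and 4.84% in N988, all females, and between 2.02% and 3.39% in the other 8 libraries. Calls lost without these 4 libraries are given with their values in that fit, which holds no female on 1% oil. The 7 hepatocyte markers summed to between 85264 and 171349 CPM per library, and the kidney and muscle markers to at most 0.312 CPM. Summed Kupffer cell markers ran from 184 to 408 CPM in controls, from 95.7 to 237 CPM on 1% oil and from 94.8 to 248 CPM on 5% oil, and 0 of these 6 markers passed the test in any diet comparison (edgeR quasi-likelihood test with Benjamini-Hochberg adjustment), while 6 were lower at an unadjusted p under 0.05 on 1% oil. In whole liver, fewer cells of a type and less RNA per cell cannot be told apart. No marker of the hepatocyte, endothelial, stellate, cholangiocyte, lymphocyte or adipocyte lists passed in a diet comparison over both sexes. In a fit of all 12 libraries grouped by diet and sex, 1 of 5 endothelial markers was lower in 5% females than in control females. So were 137 of all 13814 genes tested. Between the sexes Clec4f (Kupffer cells) and Ptprc (lymphocytes) were higher and Cfd (adipocytes, the only 1 of 4 such markers tested) lower in females. All p-values measure the spread between these 12 livers.

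The start-site regions of 4 of the diet-responsive genes are shown because these genes are described together: Ehhadh, both thiolase genes and Pex11a. Each window holds 250 bases before and 50 bases after the RefSeq start site in build GRCm38.p6, read on the gene's strand, at chr16:21787785-21788084 on the minus strand for Ehhadh, chr9:119341044-119341343 on the plus strand for Acaa1a, chr9:119157044-119157343 on the minus strand for Acaa1b and chr7:79743082-79743381 on the minus strand for Pex11a. Capitals mark CCAAT boxes and GC boxes (GGGCGG) on either strand.
Ehhadh: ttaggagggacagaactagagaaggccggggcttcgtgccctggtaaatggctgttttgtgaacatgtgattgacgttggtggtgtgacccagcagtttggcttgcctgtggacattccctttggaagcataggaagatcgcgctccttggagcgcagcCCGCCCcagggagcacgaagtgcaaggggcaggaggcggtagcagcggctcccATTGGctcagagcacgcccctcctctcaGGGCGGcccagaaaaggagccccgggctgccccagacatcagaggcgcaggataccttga
Acaa1a: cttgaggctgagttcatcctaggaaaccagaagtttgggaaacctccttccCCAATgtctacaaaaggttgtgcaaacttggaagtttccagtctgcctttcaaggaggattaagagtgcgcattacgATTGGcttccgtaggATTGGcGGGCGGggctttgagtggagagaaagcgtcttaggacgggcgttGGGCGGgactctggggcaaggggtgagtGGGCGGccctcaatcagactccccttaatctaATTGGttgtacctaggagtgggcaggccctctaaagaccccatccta
Acaa1b: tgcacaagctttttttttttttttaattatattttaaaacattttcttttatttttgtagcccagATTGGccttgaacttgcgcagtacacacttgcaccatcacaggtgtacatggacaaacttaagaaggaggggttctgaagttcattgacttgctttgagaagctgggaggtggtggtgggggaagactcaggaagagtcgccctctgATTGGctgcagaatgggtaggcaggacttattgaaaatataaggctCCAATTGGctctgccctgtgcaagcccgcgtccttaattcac
Pex11a: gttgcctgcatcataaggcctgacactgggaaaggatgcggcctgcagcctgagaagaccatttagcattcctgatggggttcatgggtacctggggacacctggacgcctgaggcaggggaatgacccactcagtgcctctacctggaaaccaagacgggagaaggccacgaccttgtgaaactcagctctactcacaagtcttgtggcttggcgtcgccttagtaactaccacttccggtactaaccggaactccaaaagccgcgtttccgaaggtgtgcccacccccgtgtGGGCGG
The Acaa1a and Acaa1b windows held 4 CCAAT boxes each, with GC boxes only in Acaa1a (3). The Ehhadh window held 1 CCAAT box and 2 GC boxes, and that of Pex11a 1 GC box and 0 CCAAT boxes. Windows were found for 36 of the 43 genes (41 windows). The CCAAT box was in 18 of these 41 windows and in 37.4% of all 32851 windows of the same length, and the GC box in 28 of the 41 against 35.7%. The nuclear receptor half-site AGGTCA, searched on both strands, was in 5 of the 41 windows against 16.3% of all windows. A direct repeat of that half-site with 1 base between, AGGTCANAGGTCA, with up to 2 mismatches, was in windows of Cat (AGGTCAgAGaaCA, 204 bases before the start site) and Acox2 (AGGaCAgAGGTgA, 9 bases after it), and in 3.86% of all windows. Of these 2 matches, the one in Cat holds an exact half-site.

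Set against transcript length, Scp2 had the highest and Far1 the lowest mean level of the 43 genes on the control diet. In TPM, which divides by transcript length and by depth (mean ± SD, n = 4), Scp2, which encodes a thiolase and a sterol carrier protein, led with 2988 ± 1452 TPM. Catalase (Cat, 1357 ± 403 TPM), the phytanoyl-CoA hydroxylase Phyh (1061 ± 442 TPM) and the thiolase Acaa1b (757 ± 336 TPM) followed. The 2 lowest were genes of ether lipid synthesis, Agps at 1.76 ± 0.274 TPM and Far1 at 0.958 ± 0.355 TPM. The bifunctional enzyme gene Ehhadh was 16th on the control diet, with 117 ± 60.0 TPM, and stood at 347 ± 138 TPM on 1% oil and 648 ± 130.3 TPM on 5% oil.

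On 5% oil, 6 of the 43 genes rose against the control diet and 0 fell (edgeR adjusted p below 0.05). They were Ehhadh, the thiolases Acaa1a and Acaa1b, the double-bond isomerases Ech1 and Eci2, and Pex26. Of all genes tested, 2.46% passed in this comparison, 1.19% as increases and 1.27% as decreases. Among the 30 enzyme, transporter and membrane protein genes 5 rose, all from the 14 core and auxiliary β-oxidation enzymes, and among the 13 Pex genes 1 rose. The median log2 fold change was 0.19 over the 43 genes, 0.44 over those 14 enzymes and 0.03 over the Pex genes, against 0.01 over all genes tested. At an unadjusted p under 0.05 there were 15 of the 43, and 2010 of the 13814 genes tested.

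On 1% oil, 2 of the 43 rose, Ehhadh and Eci2, and 0 fell, where 0.224% of all genes tested passed and 0.138% passed as increases and 0.0869% as decreases. The median log2 fold change was 0.15, against 0.00063 over all genes, and 10 of the 43 had an unadjusted p under 0.05, as had 1530 of all 13814. Between 5% and 1% oil 1 gene of the 43, Pxmp2, was lower on 5% and 0 were higher, against 1.33% of all genes tested (0.861% higher and 0.471% lower on 5%). With the 8 oil-fed livers set against the 4 controls, 8 genes rose and 0 fell: the 6 of the 5% comparison plus Decr2 and Pex11a, against 1.30% of all genes (0.514% higher and 0.782% lower). The comparisons of 5%, of 1% and of both oils with control share the same 4 control livers. Leaving out 1 library at a time gave 2 (without N980) to 5 calls for 5% oil, with 3 without N984, N972, N987, N988 or N976. For 1% oil it gave 0 calls without N968, N984 or N972, 1 without N980 or N967, and 4 without N979, N987 or N975. With both oils it gave 1 call without N967, 2 without N980, N968 or N972, 4 without N979 or N984, and 5 without N983, N988 or N976. Between the doses it gave 3 without N975, 2 without N979, 1 without N980 or N967, and 0 without any of the others. Without the 4 libraries rich in retained-intron reads, 5 genes passed on 5% oil, 2 on 1% oil, 4 with both oils and 0 between the doses. Of all 13860 genes tested in that fit, 258, 38, 136 and 42 passed in that order. As N983 and N984 were the only females on 1% oil, that fit had just the males N971 and N972 on this diet. The share of retained-intron reads and the loss of these females cannot be told apart in it.

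**Figure D1:**
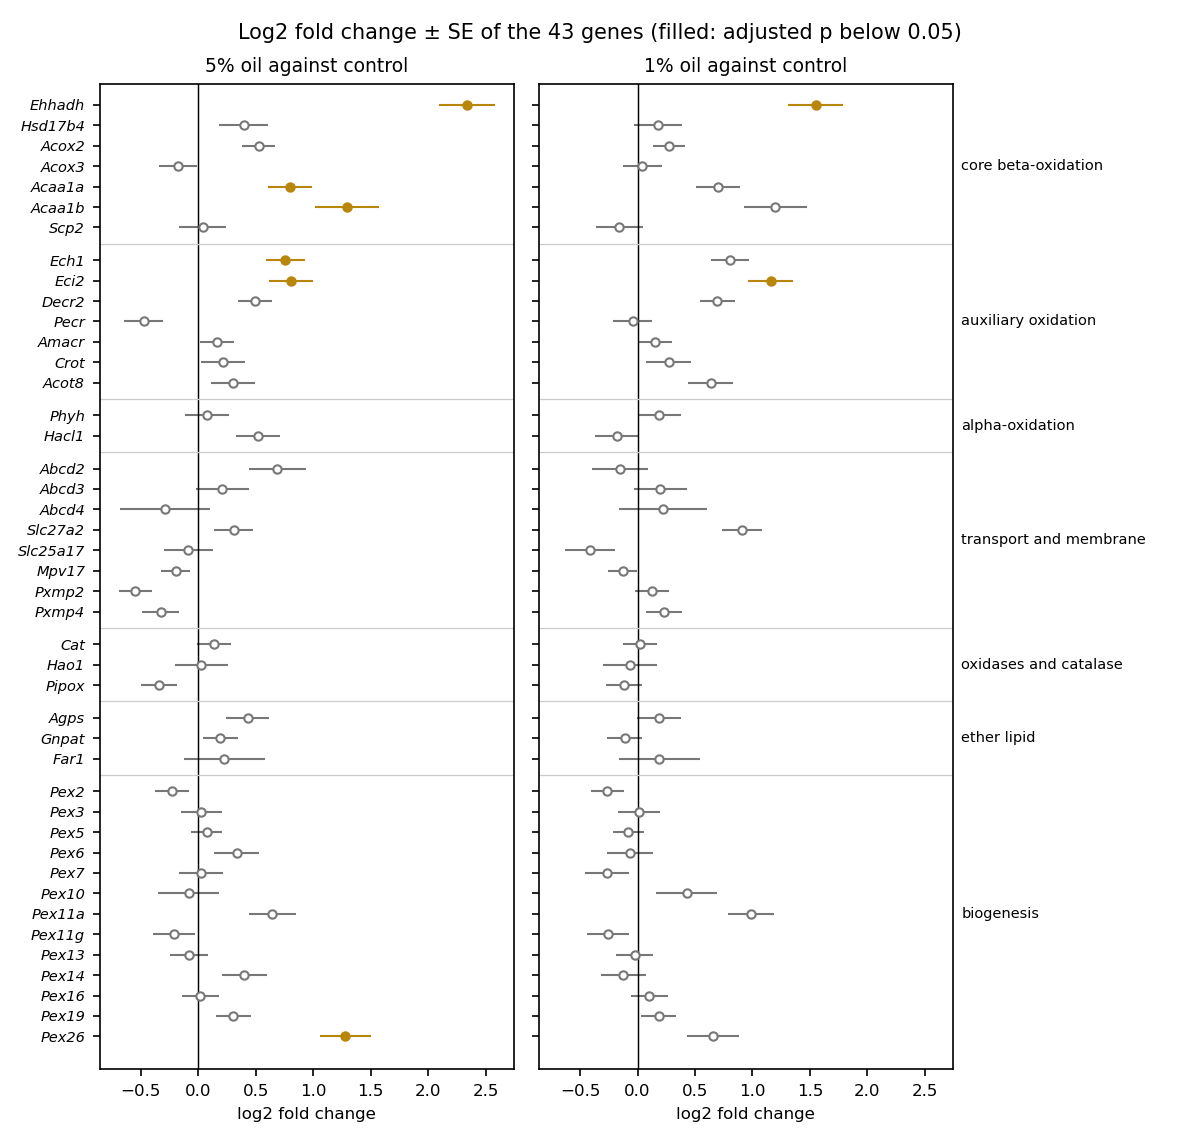
Log2 fold change ± standard error (x axis) of each of the 43 genes (y axis, grouped by role) for 5% oil (left) and 1% oil (right) against the control diet, both on 1 scale. Filled points passed an adjusted p of 0.05: 6 genes at 5% oil, led by Ehhadh at 2.34, and 2 at 1% oil.

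Of the 7 core β-oxidation genes, the widest difference was that of Ehhadh (ENSMUSG00000022853), the bifunctional enzyme of straight-chain β-oxidation and a classical PPARα target. It was read at 118, 263, 389 and 255 CPM on the control diet, 414, 588, 1061 and 1019 CPM on 1% oil and 990.0, 1065, 1507 and 1519.7 CPM on 5% oil. All 8 oil-fed livers lay above all 4 controls, and on each oil diet both males lay above both females. The mean rose from 256 ± 110.5 to 770.4 ± 319 and 1270.4 ± 282 CPM (SD, n = 4), a log2 fold change of 1.55 ± 0.24 on 1% oil (edgeR adjusted p = 0.0132) and 2.34 ± 0.24 on 5% oil (adjusted p = 0.000293). The 5% call held when any 1 library was left out (adjusted p at most 0.00269), while the 1% call, with each library left out alone, was lost without N968, N984 or N972 (adjusted p up to 0.076). The step from 1% to 5% oil, 0.79 ± 0.23, did not pass (adjusted p = 0.109), and 1 male on 1% oil reached 1061 CPM against 990.0 CPM in the lowest 5% female.

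The thiolases Acaa1b (ENSMUSG00000010651) and Acaa1a (ENSMUSG00000036138) cut acetyl-CoA from the chain in the last step. Acaa1b was read at 707, 459, 1203 and 1333 CPM on the control diet, 1169, 1762, 2429 and 2985 CPM on 1% oil and 1508, 2730.0, 2016 and 2036 CPM on 5% oil. The 5% livers all lay above the controls, and 1 female on 1% oil did not. The difference was 1.29 ± 0.28 on the log2 scale on 5% oil (edgeR adjusted p = 0.0265), lost without N979 or N980 (adjusted p up to 0.0842), and 1.20 ± 0.27 on 1% oil (adjusted p = 0.0895). With both oils it was 1.25 ± 0.25 (adjusted p = 0.026), lost without N979, N980, N967, N968 or N972 (adjusted p up to 0.104). In the 5% comparison the fitted change was 1.86 ± 0.33 in females and 0.68 ± 0.32 in males, and the test of that difference gave 1.19 ± 0.45 with an adjusted p of 0.901. Acaa1a was read at 123, 68.6, 103 and 106 CPM on the control diet, 118, 173, 163 and 199 CPM on 1% oil and 178, 181, 165 and 170.1 CPM on 5% oil. Its 5% livers were tightly grouped and above all controls. Its difference was 0.80 ± 0.19 on 5% oil (adjusted p = 0.0453) and 0.70 ± 0.19 on 1% oil (adjusted p = 0.168), and the 5% call was lost without N980, N967, N968, N984, N971, N972, N987, N988 or N976 (adjusted p up to 0.135). With both oils it was 0.75 ± 0.17 (adjusted p = 0.0495), lost without N980, N967, N968, N984, N971, N972, N987, N988, N975 or N976 (adjusted p up to 0.187).

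The 2 thiolase genes are near-identical copies, and their coding starts are printed to show how little separates them for the assignment of reads. These are coding bases 1 to 150 in GENCODE M21, with the 6 differing bases in capitals.
Acaa1a: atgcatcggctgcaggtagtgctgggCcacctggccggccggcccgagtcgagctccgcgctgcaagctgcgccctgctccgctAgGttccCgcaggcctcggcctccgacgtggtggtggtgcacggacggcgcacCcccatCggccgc
Acaa1b: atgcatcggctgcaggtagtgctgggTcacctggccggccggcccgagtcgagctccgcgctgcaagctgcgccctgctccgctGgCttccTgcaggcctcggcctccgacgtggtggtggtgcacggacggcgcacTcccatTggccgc
Over the full 1275 coding bases, 1231 are equal (96.5%), and 50.7% of the 31-base stretches of Acaa1a recur in Acaa1b, so the split of reads between the copies is uncertain. Summed over both genes, the difference was 1.24 ± 0.26 on 5% oil (edgeR adjusted p = 0.0256), 1.15 ± 0.26 on 1% oil (adjusted p = 0.0876) and 1.20 ± 0.24 with both oils (adjusted p = 0.025).

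The other 4 core genes did not pass in any diet comparison. Acox2, an oxidase for branched chains and bile acid intermediates, had 158 ± 43.7 CPM in controls and 223 ± 38.5 CPM on 5% oil (0.53 ± 0.14, edgeR adjusted p = 0.0694). With the retained-intron share of each library as a further term, a fit chosen after seeing the data, its edgeR adjusted p was 0.0355. In that fit 649 of all genes passed on 5% oil, against 340 in the fit reported. Hsd17b4, the bifunctional enzyme for branched and very long chains, had 315 ± 159 and 387 ± 94.1 CPM (0.39 ± 0.21). Scp2 was at 0.04 ± 0.21 and the branched-chain oxidase Acox3 at -0.18 ± 0.17.

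Among the 7 auxiliary genes, Ech1, Eci2 and Decr2 act on the double bonds of unsaturated chains. Ech1 (ENSMUSG00000053898), a dienoyl-CoA isomerase, was read at 265, 248, 294 and 359 CPM on the control diet, 465, 567, 448 and 559 CPM on 1% oil and 518, 578, 444 and 431 CPM on 5% oil. All 8 oil-fed livers exceeded all controls, and the livers of both doses overlapped. The difference was 0.76 ± 0.17 on 5% oil (edgeR adjusted p = 0.0326) and 0.81 ± 0.17 on 1% oil (adjusted p = 0.0718), and it was 0.78 ± 0.15 with both oils (adjusted p = 0.0212), lost without N979, N980, N967, N984 or N972 (adjusted p up to 0.127) and without the 4 libraries rich in retained-intron reads (0.68 ± 0.18, adjusted p = 0.13). The 5% call was lost without N979, N980, N967, N984, N972, N987, N988 or N976 (adjusted p up to 0.136), and also without those 4 libraries (0.63 ± 0.19, adjusted p = 0.161).

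Eci2 (ENSMUSG00000021417), an enoyl-CoA isomerase, was read at 235, 146, 152 and 154 CPM on the control diet, 389.8, 466, 320.3 and 356 CPM on 1% oil and 285, 262, 373 and 268 CPM on 5% oil. All 8 oil-fed livers again exceeded the controls, although N979 was high for a control. The rise was 1.16 ± 0.19 on 1% oil (edgeR adjusted p = 0.0224) and 0.80 ± 0.19 on 5% oil (adjusted p = 0.0434), and the doses did not differ past the threshold (-0.35 ± 0.19, adjusted p = 0.351). The 1% call was lost without N980, N967, N968, N984 or N972 (adjusted p up to 0.0833). The 5% call was lost without any library but N979 (adjusted p up to 0.124). With both oils against control the rise was 0.98 ± 0.17 (adjusted p = 0.0139), lost without N967 or N968 (adjusted p up to 0.0596).

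Decr2 (ENSMUSG00000036775), the dienoyl-CoA reductase, was read at 122, 145, 182 and 156 CPM on the control diet, 218, 233, 229 and 297 CPM on 1% oil and 175, 188, 274 and 217 CPM on 5% oil. The 1% livers lay above all controls, and 1 of the 5% females lay within their range. It passed with both oils against control (0.59 ± 0.13, edgeR adjusted p = 0.0438), a call lost without any library but N971 (adjusted p up to 0.194) and without the 4 libraries rich in retained-intron reads (0.52 ± 0.17, adjusted p = 0.234), and not for 5% (0.49 ± 0.15) or 1% (0.70 ± 0.15, adjusted p = 0.0729) alone. The other 4 did not pass. The enoyl-CoA reductase Pecr had 223, 179, 164 and 234 CPM in controls and 154, 141, 140.4 and 141 CPM on 5% oil, all 4 below the controls (-0.48 ± 0.17, adjusted p = 0.189). The thioesterase Acot8 had 0.64 ± 0.20 on 1% oil (adjusted p = 0.234), and the racemase Amacr and the carnitine octanoyltransferase Crot had 0.16 ± 0.15 and 0.21 ± 0.19 on 5% oil.

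Neither gene of α-oxidation, which removes 1 carbon from branched chains, passed in a diet comparison. Phyh had 1126 ± 461 CPM in controls and 1214 ± 634 CPM on 5% oil (0.07 ± 0.19). The lyase Hacl1 had 226, 175, 214 and 287 CPM on 1% oil and 385, 277, 393 and 403 CPM on 5% oil. Only the 1% male N972 exceeded a 5% liver, the female N988. The difference between the doses was 0.70 ± 0.19 (edgeR adjusted p = 0.0876). A fit without N979 and N988, chosen after seeing the data, gave 0.80 ± 0.19 (edgeR adjusted p = 0.0428). As it leaves out that 5% liver, it is no separate test, and 493 of all genes passed in it against 184. With the retained-intron share as a further term, without the 4 libraries rich in such reads or with coding transcripts alone, 0 of the 43 passed between the doses.

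Of the 8 transport and membrane protein genes 1 passed in a diet comparison. Pxmp2 (ENSMUSG00000029499), a channel of the peroxisomal membrane, was read at 139, 124, 90.4 and 112 CPM on the control diet, 122, 124, 127 and 132 CPM on 1% oil and 85.0, 79.5, 83.2 and 69.1 CPM on 5% oil. The 5% livers lay below all others. It was -0.68 ± 0.15 on 5% against 1% oil (edgeR adjusted p = 0.0424) and -0.55 ± 0.15 on 5% oil against control (adjusted p = 0.0638). The first call was lost without N968, N983, N984, N971, N972, N987, N988 or N976 (adjusted p up to 0.169), without the 4 libraries rich in retained-intron reads (-0.80 ± 0.18, adjusted p = 0.12) and when only protein-coding transcripts were summed (-0.57 ± 0.15, adjusted p = 0.0918).

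Slc27a2, which activates very long chains to acyl-CoA, was read at 673, 717, 1023 and 994 CPM on the control diet, 1357, 1650.1, 1581 and 1731 CPM on 1% oil and 927, 992, 1394 and 855 CPM on 5% oil. The 1% livers lay above all controls and 3 of the 5% livers within the control range. Its adjusted p was 0.0504 on 1% oil (0.91 ± 0.17) and 0.0991 between the doses (-0.61 ± 0.17), so neither passed. Abcd2, an importer of very-long-chain acyl-CoA, had 27.6, 22.5, 19.0 and 20.0 CPM on 1% oil and 58.2, 36.8, 30.3 and 36.1 CPM on 5% oil, with no overlap between the doses (0.84 ± 0.24, edgeR adjusted p = 0.102). Pxmp4, another membrane protein, was lower in every 5% liver than in every 1% liver (-0.56 ± 0.16, adjusted p = 0.0976). On 5% oil Abcd3, Abcd4, Slc25a17 and Mpv17 ran from -0.29 (Abcd4, with a standard error of 0.39) to 0.21 (Abcd3).

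The peroxide-producing oxidases and catalase did not pass in a diet comparison. Cat had 2655 ± 725 CPM in controls, 2676 ± 676 CPM on 1% oil and 2919 ± 809 CPM on 5% oil, a difference of 0.14 ± 0.15 at the higher dose (edgeR adjusted p = 0.768). The glycolate oxidase Hao1 was at 0.02 ± 0.23 and the pipecolic acid oxidase Pipox at -0.34 ± 0.16. The ether lipid genes Agps, Gnpat and Far1 had 0.43 ± 0.19, 0.19 ± 0.15 and 0.23 ± 0.35, with 0 calls. Far1 had 379 reads over all libraries, the fewest of the 43.

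**Figure D2:**
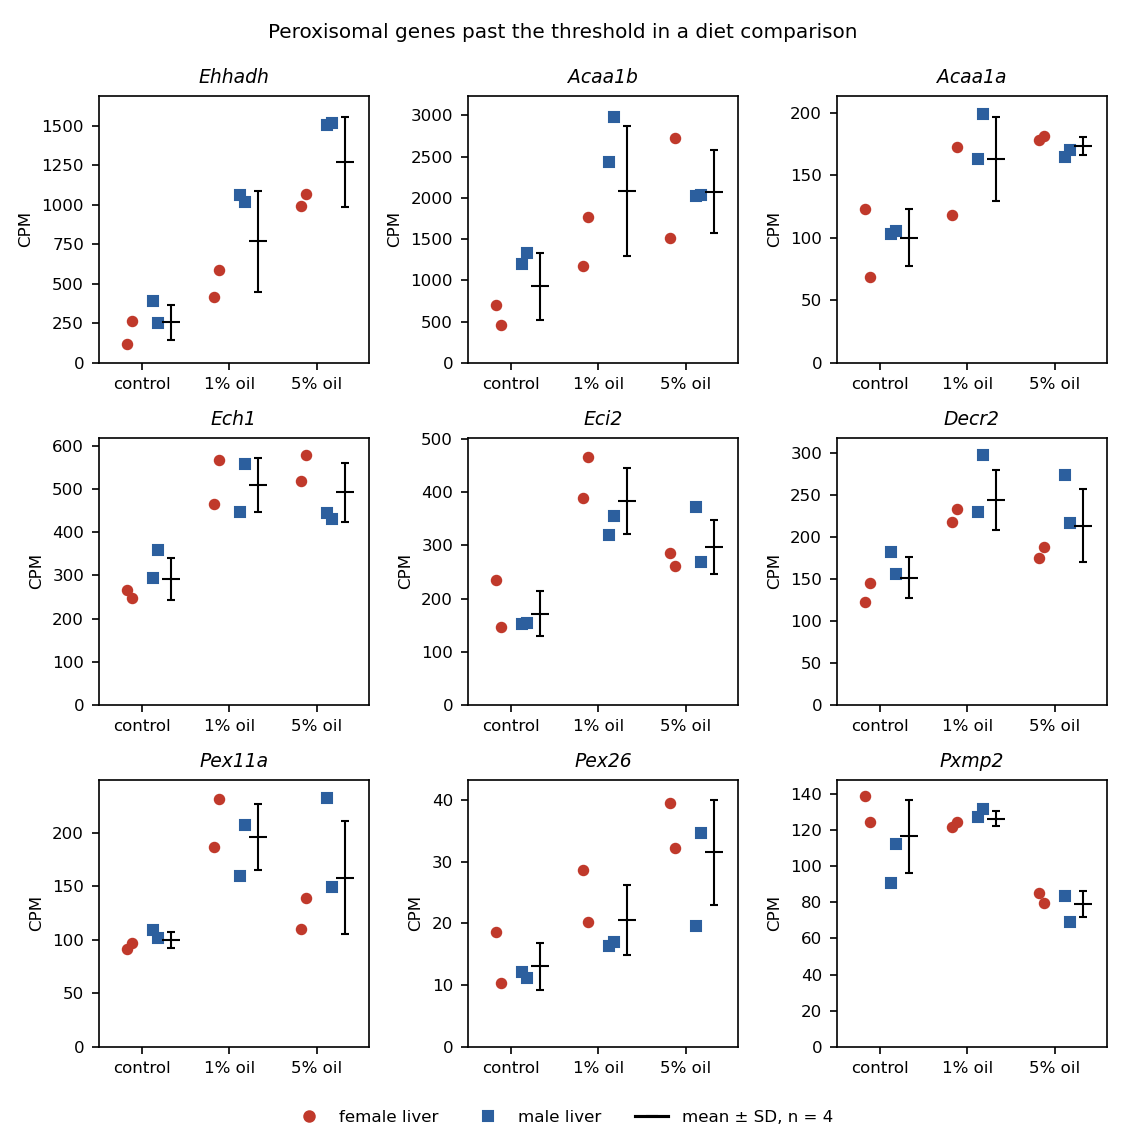
CPM (y axes, from 0) of the 9 genes that passed in a diet comparison, by diet (x axes). Circles are females, squares males, and the bar at the right of each group is the mean ± SD of 4 livers. Ehhadh runs from 118 CPM in a control female to 1519.7 CPM in a 5% male, and Pxmp2 is lowest in the 5% livers.

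Of the 13 Pex genes, Pex26 alone passed on 5% oil, 0 passed on 1% oil, and Pex26 and Pex11a passed with both oils. Pex26 (ENSMUSG00000067825) anchors the ATPase complex that recycles import receptors. It was read at 18.7, 10.3, 12.1 and 11.2 CPM on the control diet, 28.7, 20.3, 16.4 and 17.0 CPM on 1% oil and 39.6, 32.2, 19.6 and 34.7 CPM on 5% oil. All 5% livers lay above all controls, the lowest being the male N975 at 19.6 CPM against 18.7 CPM in the control female N979. The rise was 1.28 ± 0.22 on 5% oil (edgeR adjusted p = 0.00874), a call that held without any 1 library (adjusted p at most 0.0383), and the 1% value was 0.65 ± 0.22 (adjusted p = 0.278). With both oils the rise was 0.97 ± 0.20 (adjusted p = 0.0309), lost without N980, N967, N968, N983, N972 or N976 (adjusted p up to 0.107) and without the 4 libraries rich in retained-intron reads (1.06 ± 0.23, adjusted p = 0.0579). Pex6, an ATPase of that complex, had 0.33 ± 0.20 on 5% oil (adjusted p = 0.497).

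Pex11a (ENSMUSG00000030545), which elongates and divides peroxisomes and is a known PPARα target, was read at 91.7, 96.5, 109 and 102 CPM on the control diet, 187, 231, 159 and 207 CPM on 1% oil and 109.7, 139, 233 and 149.6 CPM on 5% oil. All 8 oil-fed livers lay above the controls, the lowest being a 5% female at 109.7 CPM beside 108.6 CPM in the highest control. With both oils the difference was 0.82 ± 0.18 (edgeR adjusted p = 0.0422), lost without N979, N980, N967, N968, N983, N984, N972, N988 or N976 (adjusted p up to 0.149) and without the 4 libraries rich in retained-intron reads (0.66 ± 0.20, adjusted p = 0.216). By dose it was 0.99 ± 0.20 on 1% oil (adjusted p = 0.0637) and 0.64 ± 0.20 on 5% oil (adjusted p = 0.12). Its relative Pex11g had -0.21 ± 0.18 on 5% oil.

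The remaining Pex genes did not pass in any diet comparison. On 5% oil the import receptors Pex5 and Pex7 had 0.07 ± 0.13 and 0.02 ± 0.19, and the docking proteins Pex13 and Pex14 -0.08 ± 0.16 and 0.40 ± 0.20. The ubiquitin ligase subunits Pex2 and Pex10 had -0.23 ± 0.14 and -0.09 ± 0.27. The membrane assembly factors Pex3, Pex16 and Pex19 had 0.03 ± 0.18, 0.02 ± 0.16 and 0.30 ± 0.15. Summed over the 13 Pex genes, each library had between 608 and 908 CPM, with 608 to 744 CPM in controls, 696 to 908 CPM on 1% oil and 726 to 874 CPM on 5% oil.

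The deposited gene counts add up all transcripts of a gene, and for some of these genes many reads lie on transcripts annotated as not coding. The share on protein-coding transcripts was 26.8% for Pex16 and 35.2% for Decr2 over all libraries, 71.4% for Acaa1a, 75.2% for Scp2 and 76.1% for Eci2, and 100% for Ehhadh. It varied between libraries, from 45.5% in N979 to 93.7% in N987 for Acaa1a and from 15.7% in N979 to 73.0% in N967 for Decr2. Counted over coding transcripts alone, 6 genes rose on 5% oil, the same 6 as for whole genes, with Acaa1a at 1.07 ± 0.25 (edgeR adjusted p = 0.0491) and Eci2 at 1.02 ± 0.16 (adjusted p = 0.00894). By that count 245 of all 12132 genes tested passed on 5% oil, 51.8% of them as increases. With both oils 5 rose by that count, as 115 of all genes passed, and Decr2 was at 0.34 ± 0.30 (adjusted p = 0.754). The both-oil calls of Acaa1a and Pex11a were lost by that count too.

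**Figure D3:**
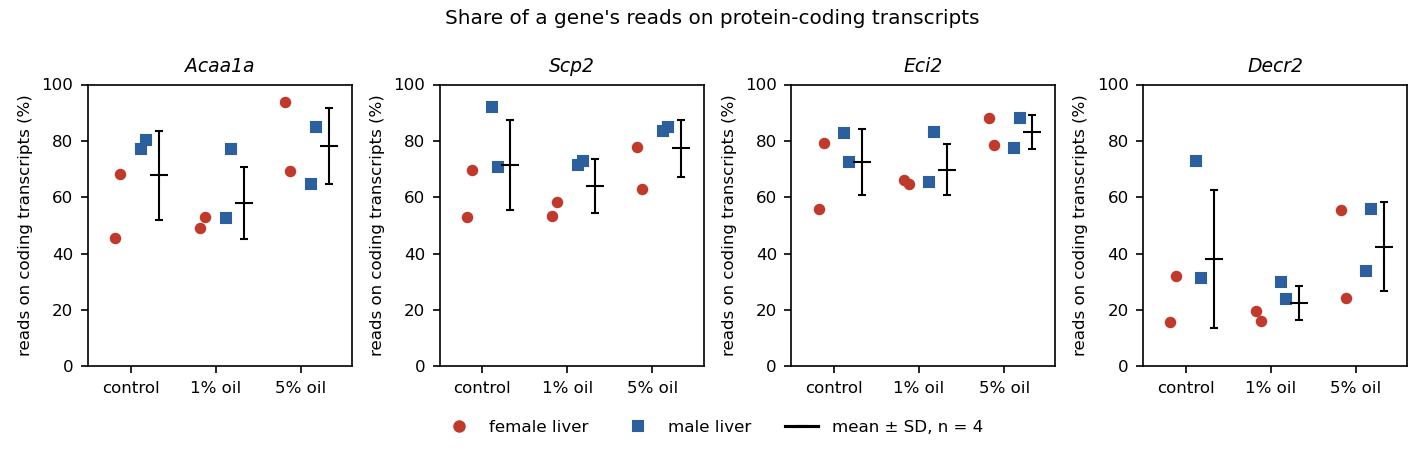
Percent of a gene's estimated reads on transcripts annotated as protein-coding (y axes, 0 to 100%) by diet (x axes), for 4 genes. Circles are females, squares males, and bars are the mean ± SD of 4 livers. Acaa1a runs from 45.5% to 93.7% between libraries and Decr2 from 15.7% to 73.0%.

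Females were compared with males over all diets. With all 12 libraries, 12 of the 43 were lower in females and 1 was higher, against 8.94% of all genes tested, 5.34% being lower and 3.60% higher. The median log2 fold change of females against males was -0.24 over the 43, -0.65 over the 7 core genes and -0.21 over the Pex genes, against 0.03 over all genes. The 12 were Scp2, Hsd17b4, Acox2 and Ehhadh of the core pathway, Crot, Phyh, Abcd3, Slc25a17, Cat, Hao1, Gnpat and Pex3, and the higher one was Pex10. Without the 4 female libraries rich in retained-intron reads, which leaves 2 females, 0 of the 43 passed and the median was -0.21. Leaving out 1 library at a time gave 8 to 15 calls, the 8 being without N967 or N972.

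Scp2 ran from 1018 to 2013 CPM in females, with a median of 1531, and from 3223 to 4689 CPM in males, with a median of 3571. The sexes did not overlap, and the difference was -1.28 ± 0.17 (edgeR adjusted p = 0.00046). Hao1 ran from 68.7 to 167 CPM in females, with a median of 104, and from 241 to 288 CPM in males, with a median of 265, also without overlap (-1.22 ± 0.19, adjusted p = 0.00166). Phyh ran from 619.8 to 1001 CPM in females, with a median of 809, and from 1374 to 2037 CPM in males, with a median of 1513, and every female was again below every male (-1.04 ± 0.16, adjusted p = 0.00116).

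Slc25a17, a carrier of cofactors across the peroxisomal membrane, ran from 16.3 to 38.0 CPM in females, with a median of 21.7, and from 36.3 to 60.3 CPM in males, with a median of 51.8. The ranges overlapped, as the control female N980 at 38.0 CPM exceeded the 1% male N971 at 36.3 CPM (-1.09 ± 0.18, edgeR adjusted p = 0.00222). Cat ran from 1813 to 2363 CPM in females, with a median of 2188, and from 2836 to 3888 CPM in males, with a median of 3334, with no overlap (-0.63 ± 0.12, adjusted p = 0.0067). Hsd17b4 ran from 146 to 353 CPM in females, with a median of 252, and from 362 to 504 CPM in males, with a median of 459.9, with no overlap (-0.86 ± 0.17, adjusted p = 0.00911). Abcd3, an importer of branched and bile acid acyl-CoA, ran from 213 to 504 CPM in females, with a median of 417, and from 562 to 846 CPM in males, with a median of 726. Its sexes did not overlap (-0.83 ± 0.19, adjusted p = 0.018), and the call was lost without N967 or N972 (adjusted p up to 0.06).

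Acox2 ran from 115 to 199 CPM in females, with a median of 149.7, and from 190.4 to 260.5 CPM in males, with a median of 229, with the 5% female N987 at 199 CPM above the control male N968 at 190.4 CPM (-0.58 ± 0.12, edgeR adjusted p = 0.0088). Crot, which passes shortened chains to carnitine for export, ran from 286 to 462 CPM in females, with a median of 335, and from 412 to 684 CPM in males, with a median of 588 (-0.68 ± 0.16, adjusted p = 0.0182). Ehhadh ran from 118 to 1065 CPM in females, with a median of 501, and from 255 to 1519.7 CPM in males, with a median of 1039.7. Its ranges overlapped widely across the diets (-0.79 ± 0.19, adjusted p = 0.023), and the call was lost without N967, N983, N984 or N972. Gnpat ran from 27.0 to 42.2 CPM in females, with a median of 32.6, and from 38.2 to 51.6 CPM in males, with a median of 46.9 (-0.43 ± 0.12, adjusted p = 0.0444), and Pex3 ran from 16.0 to 26.0 CPM in females, with a median of 18.8, and from 24.6 to 32.4 CPM in males, with a median of 27.7 (-0.55 ± 0.15, adjusted p = 0.0358). Pex10, with 756 reads in all, ran from 4.06 to 10.6 CPM in females, with a median of 8.91, and from 3.45 to 5.46 CPM in males, with a median of 4.50, and its high values were those of N979, N983, N984 and N988 (0.79 ± 0.22, adjusted p = 0.0373). The calls were lost without N979, N967, N968, N983, N984, N971, N972, N988, N975 or N976 for Gnpat, without N979, N967, N968, N983, N984, N972, N988, N975 or N976 for Pex3 and without N979, N967, N968, N983, N984, N971, N972, N988, N975 or N976 for Pex10.

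The 4 libraries rich in retained-intron reads were all female, so that share and sex move together in these data, and its part in the sex differences was not tested apart from the following fits. Without those 4 libraries, 2 females and 6 males remained, and 0 of the 43 genes passed (12 at an unadjusted p under 0.05, as were 1650 of the 13860 genes tested), with 156 of all genes passing against 1235. Scp2 was then at -0.94 ± 0.20 (edgeR adjusted p = 0.0574), Phyh at -0.91 ± 0.22 (adjusted p = 0.0864), Slc25a17 at -0.86 ± 0.21 (adjusted p = 0.0968) and Hao1 at -0.72 ± 0.17 (adjusted p = 0.0844), while Pex10 was at 0.19 ± 0.27. In the same fit Abcd3 was at -0.56 ± 0.22, Acox2 at -0.47 ± 0.16, Cat at -0.59 ± 0.19, Crot at -0.58 ± 0.24, Ehhadh at -0.42 ± 0.21, Gnpat at -0.21 ± 0.17, Hsd17b4 at -0.63 ± 0.22 and Pex3 at -0.28 ± 0.20. The median over the 43 was -0.21 in that fit, and 32 of 43 were lower in females. With the retained-intron share as a further term 5 passed: Scp2, Phyh, Slc25a17 and Hao1 lower in females, and Abcd2 higher (0.99 ± 0.17). Kupffer cell markers also moved with sex, summing to between 169 and 408 CPM in females and between 94.8 and 213 CPM in males, and their part was not tested.

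**Figure D4:**
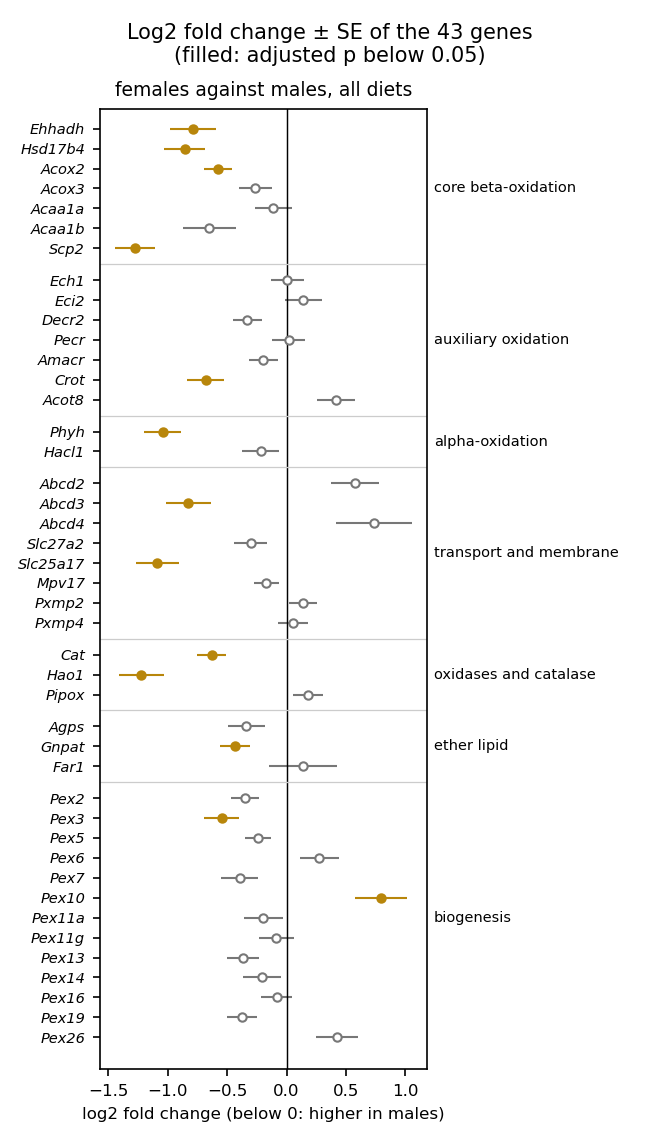
Log2 fold change ± standard error (x axis) of females against males over all diets for each of the 43 genes (y axis, by role). Filled points passed an adjusted p of 0.05: 12 genes below 0, led by Scp2 at -1.28, and Pex10 above 0.

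**Figure D5:**
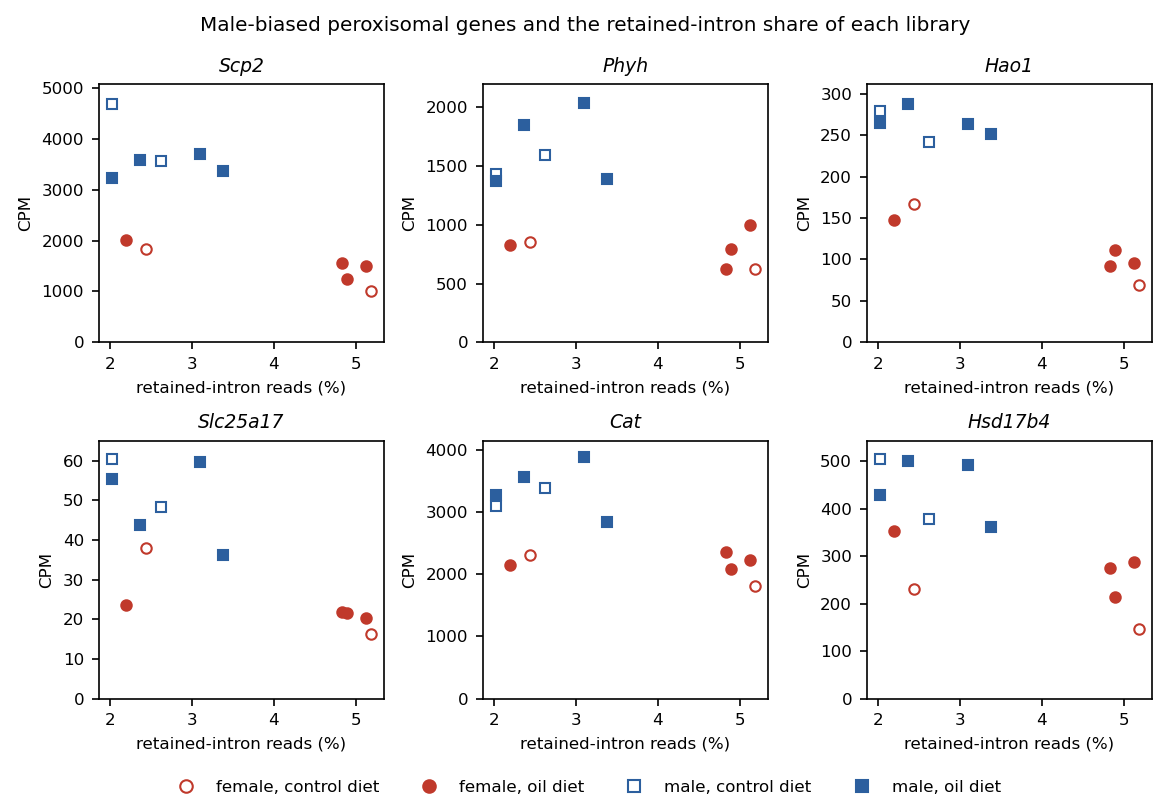
CPM (y axes, from 0) of 6 genes that were lower in females against the percent of a library's reads on retained-intron transcripts (x axes). Circles are females, squares males, and open symbols are control livers. The 4 libraries above 4% are female, and 2 females, N980 and N987, lie at 2.44% and 2.19% among the males.

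Whether the diets acted differently in females and males was tested with an interaction for each dose. For both doses 0 of the 43 genes passed (edgeR quasi-likelihood test), where 0% of all genes tested passed, and the unadjusted p was under 0.05 for 1 of the 43 at 5% oil, Acaa1b, and for 0 at 1% oil. Over all genes the unadjusted p was under 0.05 for 645 at 5% and 517 at 1% oil. DESeq2 also called 0 of the 43 at either dose, and 43 and 6 of all genes. With 2 livers per diet and sex the interaction had wide errors, from 0.26 to 0.69 on the log2 scale at 5% oil.

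Beyond the 43, 44 other peroxisomal genes were looked up, of which 40 were tested. On 5% oil 2 of the 40 rose and 0 fell, both acyl-CoA thioesterases: Acot3 at 2.18 ± 0.33 (edgeR adjusted p = 0.00572) and Acot4 at 0.89 ± 0.20 (adjusted p = 0.0311). The shares over all genes tested were 1.19% higher and 1.27% lower. On 1% oil 0 of the 40 passed, with 11 at an unadjusted p under 0.05, against 1530 of all 13814 genes. Between the doses the mevalonate kinase gene Mvk was higher on 5% oil (1.28 ± 0.27) and the glutathione transferase gene Gstk1 lower (-0.70 ± 0.16), where 1.33% of all genes tested passed. Between the sexes 11 of the 40 were lower in females and 2 were higher, the oxidase gene Hao2 (4.60 ± 0.34) and Acot3 (1.88 ± 0.27). The shares over all genes tested were 5.34% lower and 3.60% higher in females.

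Of the regulators, Ppara, which encodes PPARα, had 25.6, 22.3, 49.2 and 17.7 CPM in controls and 30.3, 26.8, 35.2 and 43.8 CPM on 5% oil (0.25 ± 0.27, edgeR adjusted p = 0.764), and its partner Rxra was at 0.12 ± 0.21. Ppard, which encodes a related fatty acid receptor, had 38.3, 26.1, 20.2 and 13.5 CPM in controls, 8.39, 5.00, 7.77 and 4.63 CPM on 1% oil and 4.12, 9.06, 6.25 and 5.66 CPM on 5% oil. No oil-fed liver reached the lowest control, and it fell by 1.85 on 1% oil (adjusted p = 0.0224) and by 1.92 on 5% oil (adjusted p = 0.00579) on the log2 scale. The coactivator gene Ppargc1a fell by 1.64 on 5% oil (adjusted p = 0.0425).

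Genes of the circadian clock moved with the diets as well, and the labels give no hour of collection. Of 14 clock genes tested, 6 rose and 3 fell on 5% oil, and 1 rose on 1% oil. Over all genes tested, 1.19% rose and 1.27% fell on 5% oil, and 0.138% rose on 1% oil. Dbp, a clock output gene, had 0.363, 1.10, 0.157 and 0.644 CPM in controls and 28.9, 40.0, 12.7 and 24.1 CPM on 5% oil (5.36 ± 0.83, edgeR adjusted p = 0.00919), and Npas2 had 15.0, 12.2, 17.9 and 14.8 and 0.812, 1.62, 3.01 and 0.922 CPM. The part of clock phase in the diet differences of the peroxisomal genes was not tested.

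The authors' deposited table of 261 genes, whose contrast its header does not name, lists 9 of the 43 genes, all with positive log2 fold changes. In the authors' deposited table Ehhadh has 2.12, Acaa1b 1.35, Pex26 1.15 and Eci2 1.11. That authors' deposited table also holds Ech1, Acaa1a, Pex11a, Decr2 and Slc27a2, with log2 fold changes from 0.71 (Decr2) to 0.90 (Ech1).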

How the data were processed

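Messenger RNA of 12 mouse livers was sequenced with a stranded mRNA kit, per the labels' protocols. The authors deposited estimated counts per gene (49398 genes) and per transcript (141450), and CPM for part of the genes. The submitters' processing notes name kallisto, edgeR and limma, without roles or versions, and build GRCm39. Use of the strand in counting is not given in the sources used here, so antisense and overlapping genes are uncertain. The deposited gene counts were not whole in 11.7% of cells and were rounded. Of the gene IDs, 48845 matched a symbol in the reference gene table. A further 12 per-library columns, in the authors' deposited table of log2 fold changes and p-values, were not used.

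A robust quasi-likelihood fit with TMM factors (edgeR 4.0.16, R 4.3.3), after filterByExpr by diet and sex (terms diet plus sex, 12 libraries, BCV 0.266) gave log2 fold changes, standard errors and Benjamini-Hochberg p-values over 13814 genes at a threshold of 0.05. The step was checked on simulated data. CPM and log2 values in the text were computed here from the deposited counts, apart from a fit of the authors' CPM as log2(CPM + 0.5). TPM and coding shares come from the deposited transcript counts with GENCODE M21 lengths and biotypes, where 138096 transcripts matched, holding 99.2% of reads. Promoter windows come from RefSeq (GRCm38.p6). Coordinates are given for these windows only, in their own build.

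The members and lists were chosen with earlier results of these data known. All members are accounted for by role, and those past the threshold are given per library or, between the sexes, by lowest, median and highest. Regulators are all named. Other peroxisomal genes are named if past the threshold in a diet comparison over both sexes, and of the sex differences among them 2 were named after their values were seen. The alternatives were DESeq2 1.42.0, limma 3.58.1 (voom, and trend on CPM), RLE and upper quartile factors, no filter and a filter of 50 reads in 4 libraries, transcript sums, other covariates and samples, and leaving out each library. Chosen after seeing the data were the coding transcript sums, summed thiolases, the retained-intron term, and fits without N979 and N988 or without the 4 libraries above 4% retained-intron reads.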

Additional observations from a re-analysis of the deposited data

Results flagged for a closer look

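Of 63 combinations of a named gene and a diet (21 genes, 4 livers each), 3 held a liver far from the other livers of its group. In controls, Eci2 was at 235 CPM in the female N979 against 146 to 154 CPM in the other 3 livers. Also in controls, Pex3 was at 16.0 CPM in N979 against 24.6 to 26.2 CPM. On 5% oil, Pex10 was at 8.76 CPM in the female N988 against 3.81 to 4.28 CPM. Chance alone sets about 1 in 20 such groups apart. Both libraries have over 4% of their reads on retained-intron transcripts (5.19% in N979 and 4.84% in N988), and the part of that share was not tested. Without N979 and N988, Eci2 was at 1.04 ± 0.18 on 5% oil (edgeR adjusted p = 0.0203), against 0.80 ± 0.19 with them.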

How the results depend on the processing

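Counts of calls moved with the processing, and no value past the threshold changed sign under the alternatives run. For 5% oil against control, 6 of the 43 genes passed in the fit reported. With limma trend on the deposited CPM 10 passed, as did 458 of all 11339 genes tested. There were 7 with no filter, 2 with no sex term, 2 with only the groups compared and 5 without N979 and N988. The fit reported had 0 of the 43 lower on 5% oil, against 1 with DESeq2 (8 higher), 1 with the retained-intron term (8 higher) and 1 without N967 (3 higher). Of all genes 340 passed, against 1011 with no filter, 749 with DESeq2, 107 with no sex term, 201 with only the groups compared, 209 without N979 and N988, and 649 with the retained-intron term. For 1% oil, 2 of the 43 passed, against 8 with no filter, 5 with the strict filter, 8 with DESeq2, 6 with limma trend, 0 with no sex term, 6 with the noncoding share as a term, 5 with only the groups compared and 7 without N979 and N988. Of all genes 31 passed, against 649, 50, 277, 54, 10, 74, 53 and 371 in that order. Between the doses 1 of the 43 passed, against 4 with no filter, 6 with DESeq2, 2 with limma trend, 0 with no sex term, 3 with the noncoding share, 3 with only the groups compared, 0 with coding transcript sums, 3 without N979 and N988, 0 with the retained-intron term and 0 without the 4 libraries above 4%. Of all genes 184 passed, against 1276, 707, 281, 8, 469, 306, 82, 493, 121 and 42 in that order. With both oils 8 of the 43 passed, against 9 with no filter, 10 with DESeq2, 3 with no sex term, 5 with coding sums, 5 without N979 and N988 and 4 without the 4 libraries. Of all genes 179 passed, against 753, 468, 72, 115, 188 and 136 in that order. The both-oil call of Acaa1a was lost with RLE or upper quartile factors, the strict filter, transcript sums, coding sums or no sex term. The 5% calls of Acaa1a and Eci2 were lost with upper quartile factors, no sex term or only the groups compared. Those of Acaa1b and Ech1 were lost with no sex term or only the groups compared, and that of Ech1 also without N979 and N988. Between the sexes 13 of the 43 passed, against 15 with no filter, 17 with DESeq2, 9 with the noncoding share, 10 without N979 and N988, 5 with the retained-intron term and 0 without the 4 libraries. Of all genes 1235 passed, against 2375, 2079, 555, 514, 326 and 156 in that order. The causes were not tested.

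Leaving out each library in turn gave 2 to 5 of the 43 genes for 5% oil (138 to 479 of all genes), 0 to 4 for 1% oil (13 to 184), 0 to 3 between the doses (13 to 597), 1 to 7 with both oils (66 to 214) and 8 to 15 between the sexes (594 to 2356). Higher genes made up 64.7% of calls between the doses and 40.2% between the sexes, and 51.6% and 51.8% with upper quartile factors. On the deposited CPM the higher share was 74.2% for 5% oil (48.2% in the fit reported), 81.1% between the doses, 68.9% with both oils (39.7%) and 53.8% between the sexes, where the median of all genes shifted by 0.16 (5% oil) and 0.12 (both oils) on the log2 scale. No paired analysis was possible because the animal numbers are not shared between the groups. Depths of 5291385 to 15674130 reads and 4 livers per diet limit what could be detected.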
